A study of Drosophila melanogaster with 2 samples.

Results

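The 10 cell death genes followed here were hid, rpr, grim, skl, Diap1, Dronc, Drice, Dark, Buffy and Debcl, 10 of 18164 genes annotated on the chromosome arms of Drosophila melanogaster. They were taken by name as core apoptosis genes of metamorphosis, with earlier results of these data known but by no rule on measured values, and all 10 were found in the Ensembl annotation. The samples were 2 biological replicates of 1 group, whole prepupae aged 1 day of a transgenic strain carrying CG11294 fused to eGFP, and every sample carried that insertion. Its annotation places CG11294 among the paired-like homeodomain proteins. Chromatin was sheared by sonication and precipitated with anti-GFP according to the description, while the antibody label reads CG11294. Which cells of the animal expressed the fusion protein was not given, so a peak in these whole animals cannot be assigned to the tissues that die. No control library, other stage or measure of RNA was analysed here. A peak therefore gives a place where fragments were enriched in this tagged strain, and no comparison between conditions was possible.

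Apoptosis in flies is held back by Diap1, an inhibitor of apoptosis protein that binds caspases and blocks them. The RHG proteins Hid, Reaper (rpr), Grim and Sickle (skl) bind Diap1 and release the caspases: Dronc, the initiator, which is activated on the Apaf-1 relative Dark, and Drice, the effector that cleaves cell proteins. Buffy and Debcl are the fly relatives of Bcl-2. In metamorphosis the steroid hormone ecdysone induces hid and rpr in larval tissues such as the salivary gland and midgut, which are then removed.

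Of the 10 genes, 2 had a summit of the main peak list between 2 kb upstream of the gene and its end, the window used for each gene: hid, with 1 summit, and Diap1, with 5. The main list is the authors' thresholded list from the comparison of both replicates by irreproducible discovery rate (IDR, a measure of how well peak ranks agree), and it held 3260 peaks on the arms. The other RHG genes, both caspases, Dark and both Bcl-2 relatives had none in their windows. The share among all genes was 15.3%, so 2 of 10 is close to the background. The windows ran from 2.901 kb (rpr) to 19.897 kb (hid), with a median of 5.36 kb for the 10 genes and 3.66 kb for all genes. Longer windows held a summit more often: 9.42% of genes with windows up to 5 kb, 18.9% of those over 5 and up to 10 kb, 35.7% of those over 10 and up to 25 kb and 51.3% of those over 25 kb. By the same classes, 0 of the 5 short-window genes (rpr, grim, skl, Dronc and Drice), 0 of 2 middle ones (Dark and Debcl) and 2 of 3 long ones (hid and Diap1, not Buffy) had one.

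The same 2 genes, hid and Diap1, held all the window summits in each other thresholded list. There were 5 summits in the replicate 1 list and 4 in the replicate 2 list, with shares of all genes of 16.7% and 13.7%, and 5 in the list of the pooled analysis, with 19.7%. Within 1 kb of an annotated start site, 2 of the 10 genes had a main-list summit, again hid and Diap1, beside 10.6% of all genes. The flanking gene-free space of the 10 genes added 2 main-list peaks, one upstream of hid and the other upstream of Debcl. These 8 peaks had signals from 3.82 to 368 with a median of 111, against a median of 110 for the whole list, and 4 of the 8 lay above that median. The signal is the authors' enrichment value for a peak; its scale was not given, so it serves here to rank peaks within a list. Of the 8 peaks, 4 overlapped a thresholded peak of both replicates, beside 54.8% of all main-list peaks, and 2 overlapped one in neither.

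The hid gene (FBgn0003997, dm6 chr3L:18167745-18185641, minus strand) encodes the Hid protein, and it had the strongest peak of the set, in its promoter. The peak spanned chr3L:18185830-18186074 (245 bp), and its summit lay at -305 bp from the single annotated start site, negative values being upstream. Its signal was 256 in replicate 1, rank 135 of 3229, and 104 in replicate 2, rank 523 of 2709. In the main list the signal was 368, rank 201 of 3261 or the top 6.16%, with an IDR of 1e-05. The peak was thus in the upper part of every list, and higher in rank in replicate 1 than in replicate 2. The replicate 1 summit lay at -312 bp and the replicate 2 summit at -228 bp, so the summits of the replicates were not at one base. No main-list summit fell in the body of hid. A weaker peak, chr3L:18190520-18190859, stood in the gene-free space upstream at -5049 bp, with the same summit in all 4 thresholded lists. Its signal was 47.7 in replicate 1 (rank 2306), 76.8 in replicate 2 (rank 935) and 135 in the main list (rank 1231). For this upstream peak the order of the replicates was the other way, with the better rank in replicate 2. Both sequences are shown because they are the peaks nearest to the hid start site, read on the minus strand (the coding strand of hid) from Release 6 of the genome. Capitals mark TAAT on either strand (ATTA is its complement), the core of many homeodomain sites. The promoter peak is printed whole, and the upstream peak as chr3L:18190590-18190790, 100 bases on either side of its summit.
hid promoter peak: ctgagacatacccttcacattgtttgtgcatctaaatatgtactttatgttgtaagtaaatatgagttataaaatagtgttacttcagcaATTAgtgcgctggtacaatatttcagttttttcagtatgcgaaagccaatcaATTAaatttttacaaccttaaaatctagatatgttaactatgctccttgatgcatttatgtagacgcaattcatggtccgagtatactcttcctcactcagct
hid upstream peak: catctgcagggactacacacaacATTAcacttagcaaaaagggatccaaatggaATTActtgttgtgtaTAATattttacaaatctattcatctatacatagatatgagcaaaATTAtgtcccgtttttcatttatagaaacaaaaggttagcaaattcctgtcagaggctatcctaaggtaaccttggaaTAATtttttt

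TAAT stood 2 times in the printed promoter peak of hid and 5 times around the summit at -5049 bp. At all main-list summits it was found within 100 bp in 92.4%. Neither sequence held TAATTA, present at 16.5% of main-list summits, or CACTG, present at 52.9%. TATAAA was found within 100 bp of both summits, beside 36.01% of the list. Each word was searched on both strands, words may overlap one another, and a match is a description of letters only.

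**Figure D1:**
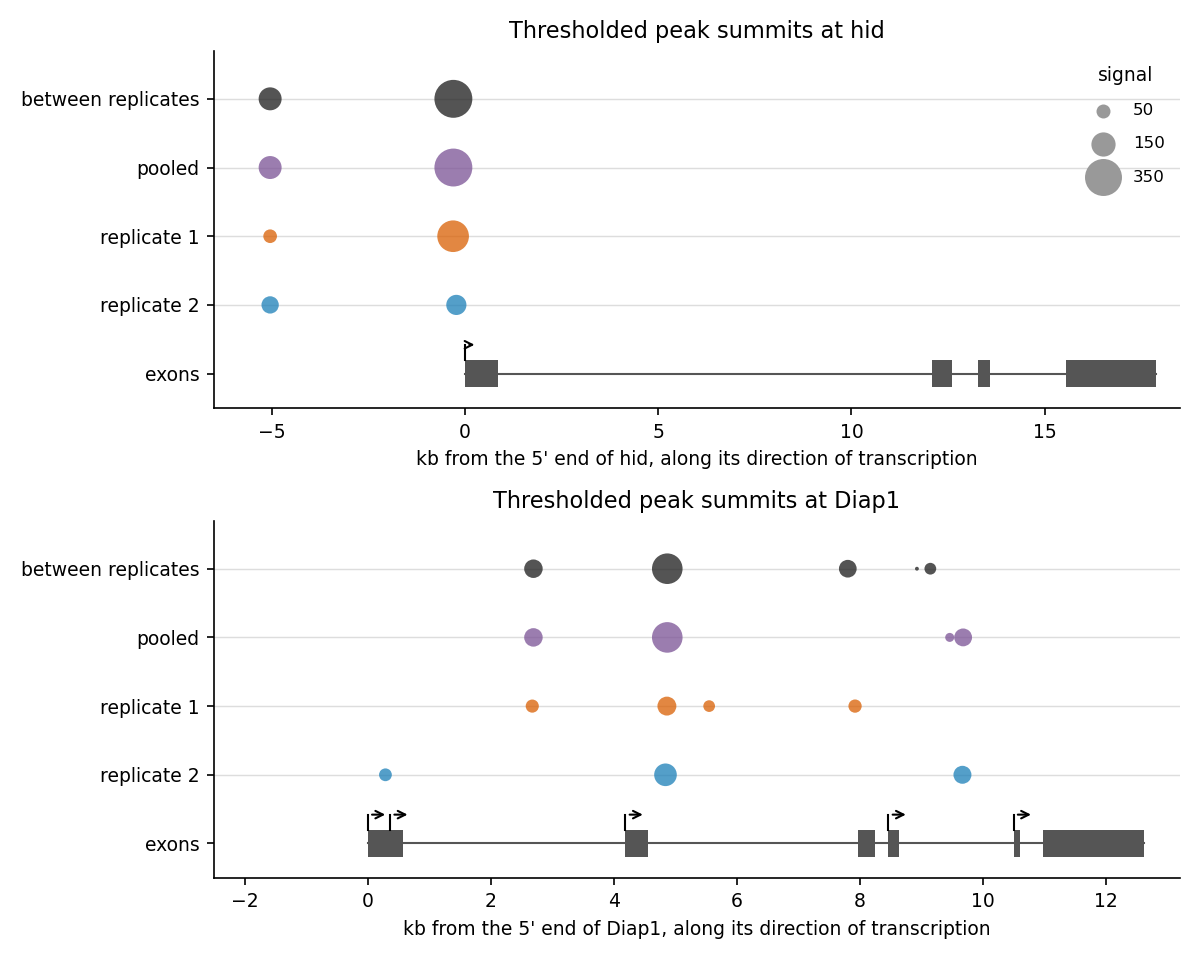
Summits of the 4 thresholded lists at hid (top) and Diap1 (bottom), by distance in kb from the gene's 5′ end along its direction of transcription; disc area is proportional to signal, boxes are exons and arrows are annotated start sites. At hid every list holds only the promoter peak and the one 5.05 kb upstream. At Diap1 only the peak at 4868 bp recurs in all 4 lists, within 29 bp, while the one at 2692 bp is in 3.

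Diap1 (FBgn0260635, chr3L:16038410-16051034, minus strand, 6 transcripts with 5 start sites) encodes the inhibitor that the RHG proteins bind. It held 5 main-list summits, all in introns of Diap1, in a window of 14.6 kb. The summit at 8927 bp also lay within the 500 bp classed as promoter, at -288 bp from the noncoding gene asRNA:CR45889. Those at 9145 and 2692 bp were also nearest to start sites of noncoding genes, asRNA:CR45889 (-506 bp) and lncRNA:CR43951 (-893 bp). Genes with 5 or more summits made up 0.573% of all genes and 1.07% of the genes with windows over 10 and up to 25 kb, or 16 of 1491. Diap1 only just reaches that cut, and its 5 include a pair of overlapping peaks near the bottom of the list. In the other thresholded lists it held 4 summits (pooled), 4 (replicate 1) and 3 (replicate 2). Only 1 of the 5 Diap1 peaks was strong in both replicates. It spanned chr3L:16046092-16046287 (196 bp), in a 3413 bp intron, 4868 bp downstream of the gene's 5′ end and 680 bp downstream of an internal start site. Its signal was 91.7 in replicate 1, rank 920 of 3229, and 131 in replicate 2, rank 334 of 2709. In the main list it had a signal of 239, rank 475 or the top 14.6%, with an IDR of 1e-05. Here the better rank was in replicate 2, unlike at the hid promoter. The whole peak is shown because it is the peak of Diap1 shared by both replicates, on the minus strand with TAAT on either strand in capitals. The motif stands in it 4 times, with no TAATTA and no CACTG.
Diap1 intron peak: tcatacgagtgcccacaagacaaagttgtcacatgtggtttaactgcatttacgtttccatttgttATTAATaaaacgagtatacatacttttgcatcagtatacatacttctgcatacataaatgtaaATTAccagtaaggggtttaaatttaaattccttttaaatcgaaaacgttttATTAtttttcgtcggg

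The other Diap1 peaks differed between the lists. The peak at 2692 bp from the 5′ end, in a 3611 bp intron, had a main-list signal of 87.6 (rank 2176) and 44.2 in replicate 1 (rank 2511). In replicate 2 it was present only among the relaxed peaks, the longer ranked list before thresholding, with a signal of 38.9 and an IDR of 0.0138, just past the 0.01 of the thresholded lists. It was the one Diap1 summit of the main list without TAAT within 100 bp, and it held CACTG. The peak at 7803 bp had a main-list signal of 80.3 (rank 2379) and 45.04 in replicate 1. In replicate 2 its relaxed counterpart had a signal of 38.5 and an IDR of 0.0173, and the peak was missing from the pooled thresholded list. The last pair, at 8927 and 9145 bp, overlapped each other and had signals of 3.82 (rank 3239) and 35.4 (rank 3088), near the bottom of the list. Neither of that pair overlapped a thresholded peak of a replicate, and their IDR values, 0.00956 and 0.00955, were just inside the threshold. Replicate 1 alone had a peak at 5549 bp (signal 35.1, rank 3002). Replicate 2 alone had one at 9667 bp (signal 82.7, rank 822) and one at 286 bp (signal 41.7, rank 2384), which lay -77 bp from a Diap1 start site. The peak of replicate 2 at 9667 bp was also in the pooled list, at 9678 bp with a signal of 81.6. In the thresholded lists, Diap1 therefore had several peaks in each replicate but a single one shared by both.

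The remaining RHG genes lie with hid in 1 cluster on chromosome 3L, in the order hid, grim, rpr and skl, all on the minus strand. The stretch from hid to skl, both genes included, chr3L:18167745-18439942, is 272 kb long and holds 17 genes, 8 of them protein coding. It had 10 main-list summits, all upstream of hid, between 0.305 and 62.9 kb from its 5′ end. Of these, 8 were intergenic, beside 13.9% of all main-list peaks, in a cluster where 238 of the 272 kb were gene-free. Thresholded peaks of both replicates were overlapped by 6 of the 10, beside 54.8% of all main-list peaks. The signals ran from 20.001 to 368 with a median of 131. Beyond the last of the 10 summits no main-list summit followed for the 191 kb to the end of skl. That stretch contains grim (chr3L:18302719-18304417), rpr (chr3L:18397535-18398435) and skl (chr3L:18438561-18439942). The next main-list summit lay at 3L position 18640670, past skl, which makes a gap of 392 kb. The median gap between neighbouring main-list summits was 12.7 kb, and 10 of 3254 gaps, or 0.307%, were as long.

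Within those 62.9 kb the peaks that both replicates shared stood at 0.305, 5.05, 26.7, 38.0, 50.4 and 50.9 kb upstream of hid. The strongest after the hid promoter was the one at 50.4 kb, chr3L:18235930-18236127, nearest to the start site of lncRNA:CR45937, a long noncoding RNA gene. Its signal was 91.5 in replicate 1 (rank 928), 125 in replicate 2 (rank 361) and 203 in the main list (rank 638). The peak at 26.7 kb had 82.7 in replicate 1 and 85.3 in replicate 2, and the one at 38.0 kb had 53.7 and 92.1. The peak at 50.9 kb had a signal of 75.3 in replicate 1 and 53.4 in replicate 2. All 4 had a main-list signal above the list's median of 110, from 127 to 203. Of the weaker 4, the peak at 57.7 kb was in the thresholded list of replicate 1 only, the peak at 62.9 kb in that of replicate 2 only, and the pair at 46.6 and 46.8 kb in neither. Replicate 1 also had a thresholded peak at 95.8 kb, signal 47.8, that was in no other thresholded list. The sequence of the peak at 50.4 kb is shown because it is the strongest intergenic peak of the cluster, with TAAT on either strand in capitals as above, on the minus strand. It held TAAT 3 times and CACTG once.
cluster peak upstream of hid: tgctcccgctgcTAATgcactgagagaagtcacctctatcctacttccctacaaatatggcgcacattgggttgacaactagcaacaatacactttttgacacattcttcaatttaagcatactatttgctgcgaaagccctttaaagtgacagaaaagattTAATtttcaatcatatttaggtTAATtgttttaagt

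The cluster had 3.67 main-list summits per 100 kb, against 2.44 for all bases of the arms. Its gene-free bases alone, 14 stretches of any length, had 4.20, against 2.49 for all gene-free bases of the arms. Gene-free stretches of at least 20 kb on the arms had 0.524. That value is not a like background for 4.20, because the cluster's long stretches were not counted apart from its short ones. The flanks of the 10 genes, which include the 2 long stretches beside rpr, had 1.36 per 100 kb, and the windows of the 10 genes had 7.61. The windows of the 4 cluster genes had 3.35 and those of the other 6 had 10.2, where all 5 summits were at Diap1. The density over the windows of all genes was not counted, so these window values have no like background. GC content of the cluster was 38.3%, against 42.1% for the arms. Over the list the bases around summits are AT-rich, with a median of 34.8% GC within 100 bp, and the 8 peaks of the death genes ran from 27.9% to 44.8% with a median of 31.1%. The part of base composition in these densities was not tested.

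Of the genes with no window summit in the main list, Buffy and rpr, the gene for Reaper, had the relaxed peaks of best rank. The best peak at rpr (FBgn0011706, minus strand) spanned chr3L:18397881-18398220, 384 bp inside the gene. Its signal was 28.0 in replicate 1, rank 4656 of 66090, with an IDR of 0.0339, and 15.04 in replicate 2, rank 32011 of 89686, with an IDR of 0.888. In the ranked list between replicates it had a signal of 40.9 and rank 7281 of 97942, or the top 7.43%, with an IDR of 0.350, and in the pooled list an IDR of 0.0414. The rank at rpr was thus far better in replicate 1 than in replicate 2. grim (FBgn0015946) had relaxed peaks in replicate 1 only, 2 of them, the best with a signal of 13.5 and rank 23027. skl (FBgn0036786) likewise had 2 in replicate 1 and 0 in replicate 2, the best with a signal of 18.9 and rank 10343.

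In the flanks of rpr, the gene-free space on both sides without the 2 kb of its window, replicate 1 had 58 relaxed peaks and replicate 2 had 1. Those 58 were weak, with signals from 2.79 to 27.3 and a median of 10.3, and none was in the thresholded list. The stretch downstream of rpr, 73.5 kb long, held 40 relaxed summits of replicate 1 and 1 of replicate 2, or 54.4 and 1.36 per 100 kb. The stretch upstream, 30.1 kb long and here counted with the window's upstream 2 kb, held 18 and 1. Over the 395 gene-free stretches of at least 20 kb, replicate 1 had the higher density in 255, or 64.6%, with a median difference (replicate 1 minus replicate 2) of 9.24 per 100 kb. A difference as high as in the downstream stretch occurred in 27 of the 395, or 6.84%, and as high as in the upstream stretch in 21, or 5.32%. The flanks of the 10 genes held 78 relaxed summits of replicate 1 and 19 of replicate 2, so the difference there came mostly from rpr; at hid the flanks held 6 and 10. In the windows of the 10 genes the order was the opposite, with 17 relaxed summits in replicate 1 and 60 in replicate 2, or 21.5 and 76.1 per 100 kb. Over all bases of the arms there were 48.8 and 66.8. The hid window held 1 in replicate 1 and 16 in replicate 2, and the Diap1 window 6 and 18. The relaxed summits of replicate 1 had a mean GC content of 45.6% and those of replicate 2 47.3%, and its part in these counts was not tested.

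**Figure D2:**
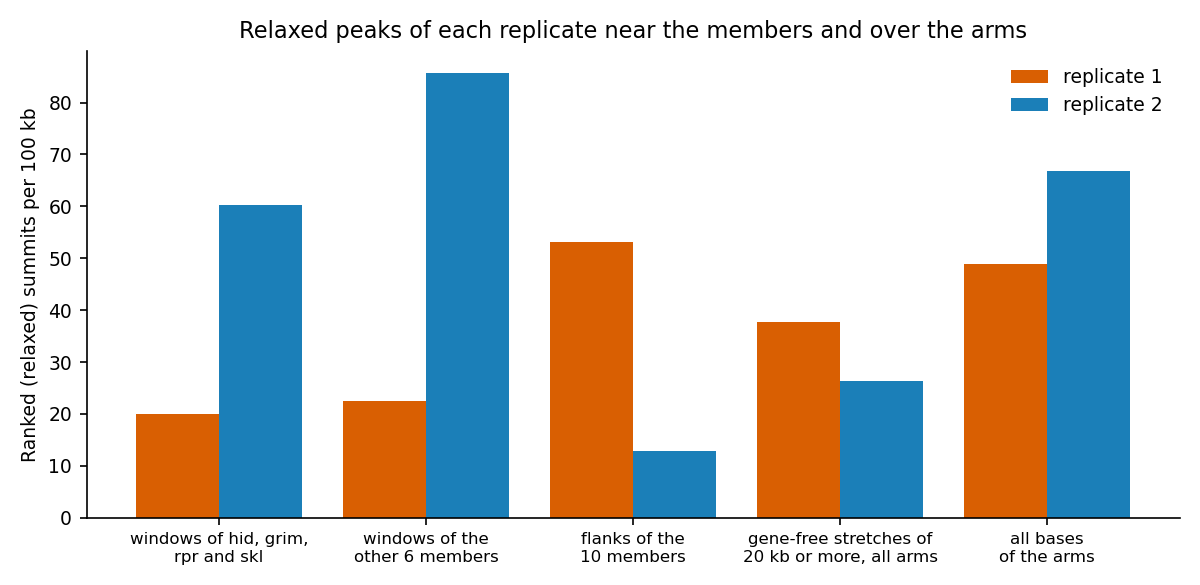
Relaxed peak summits per 100 kb in replicate 1 (orange) and replicate 2 (blue) for the windows of the 4 cluster genes, the windows of the other 6 genes, the flanks of all 10, gene-free stretches of at least 20 kb and all bases of the arms. Replicate 2 is higher in the windows and over the arms, and replicate 1 in the flanks (53.1 against 12.9) and in long gene-free stretches (37.7 against 26.4); rpr alone holds 58 of the 78 flank summits of replicate 1 and 1 of the 19 of replicate 2. There are no error bars because each bar is 1 list.

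Neither caspase gene had a thresholded peak in its window in any list. Dronc (FBgn0026404, chr3L:9968479-9971002, plus strand), the initiator caspase, had no summit in its window in any of the 8 lists, relaxed lists included, as was the case for 6% of all genes in the 4 ranked lists. Its neighbours CG6685 and CG6674 stand 161 and 148 bp away, so it has almost no flank. Drice (FBgn0019972, chr3R:29799658-29801584, plus strand), the effector caspase, had relaxed peaks only. The best in the list between replicates was at -137 bp, with a signal of 23.0 and rank 28947. The best of replicate 1 had a signal of 9.67 at 788 bp and that of replicate 2 a signal of 16.96 at -961 bp. These best peaks did not share a place, and the weaker relaxed peak of replicate 2 was not compared. Dark (FBgn0263864, chr2R:17020027-17026703, plus strand), on which Dronc is activated, had 0 relaxed peaks in replicate 1 and 7 in replicate 2, the best of rank 18603 with a signal of 19.1. The pooled thresholded list alone had a peak just past the end of Dark, with a signal of 93.5 and rank 2140 of 4330. Its summit lay 1 bp from the start site of an antisense RNA gene, asRNA:CR44390. Over the 10 genes, 7 had a relaxed peak in replicate 1 and 7 in replicate 2, beside 74.6% and 86.8% of all genes.

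The Bcl-2 relatives had no main-list summit in their windows either. Buffy (FBgn0040491, chr2R:11679492-11688557, plus strand), with a window of 11.1 kb, had 0 relaxed peaks in replicate 1 and 10 in replicate 2. The best of replicate 2 had a signal of 38.7 and rank 3175, in an intron at 3627 bp, and its counterpart in the list between replicates had a signal of 48.9, rank 5207 and an IDR of 0.263. Debcl (FBgn0029131, chr2R:6648654-6652842, plus strand) had 4 relaxed peaks in replicate 1 and 5 in replicate 2. The best in the list between replicates was a coding exon peak at 684 bp, with a signal of 31.2 and an IDR of 0.442. The best of replicate 2 lay at 685 bp (signal 21.5), and that of replicate 1 at -1901 bp (signal 8.12). The space upstream of Debcl held a main-list peak, chr2R:6645281-6645620, at -3203 bp from Debcl and -353 bp from the start site of Fmo-2, the gene on its other side. That peak had a signal of 78.1 in replicate 1 (rank 1195), 56.7 in replicate 2 (rank 1553) and 134 in the main list (rank 1239). It was in both replicates, but it lay nearer to Fmo-2 than to Debcl.

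**Figure D3:**
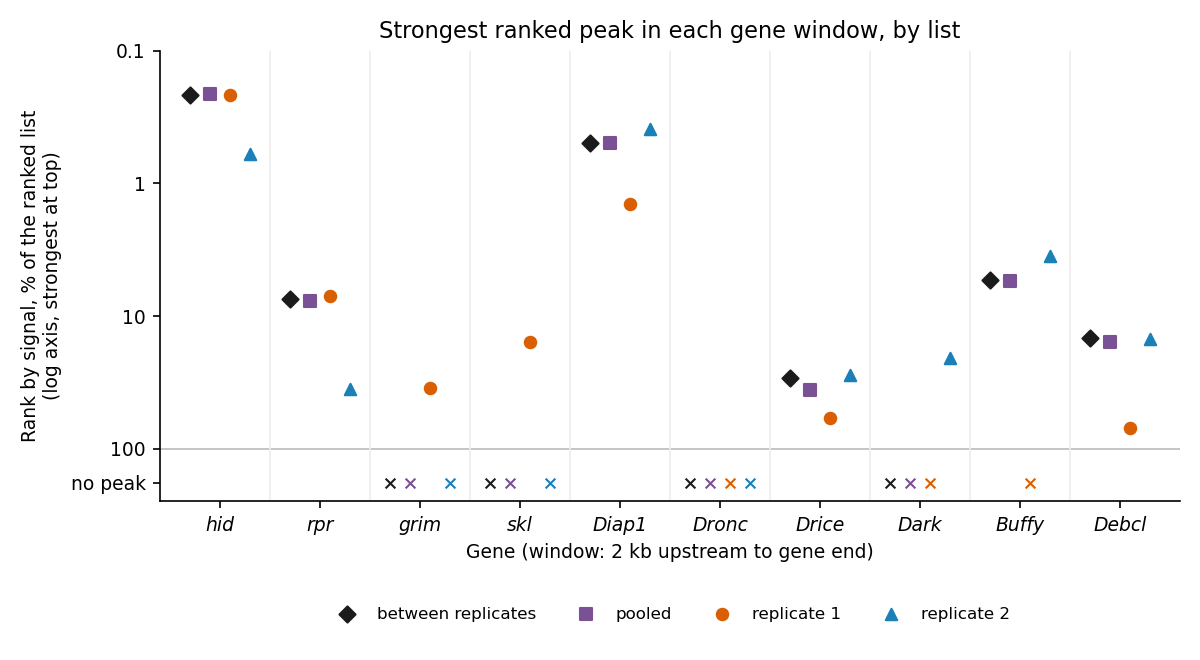
Rank of the strongest ranked peak in each gene's window as a percentage of the list (log axis, strongest at the top) in the list between replicates (diamonds), the pooled list (squares), replicate 1 (circles) and replicate 2 (triangles); crosses mark lists with no peak. Only hid and Diap1 are in the top 2% of any list, and Dronc has no peak in any.

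Other genes of cell death and clearance were counted in the same windows, as a description, and each count stands beside the 15.3% of all genes with a main-list summit and the shares by window length given above. None of 5 further caspase genes (Dcp-1, Dredd, Strica, Decay and Damm) had a main-list summit, with a median window of 4.24 kb. Of 11 other inhibitors and regulators of death, 5 did, in windows with a median of 5.75 kb, led by Cyt-c-d (signal 439), Cyt-c-p (320), Ubr3 (172) and Naam (75.9). The first of these, at a cytochrome c gene, lay nearest to the start site of CG31808. The top peak at Ubr3 and the peak at Naam overlapped a thresholded peak of 1 replicate only. DNaseII, which degrades the DNA of dead cells, was the 1 of 5 DNA cleavage genes with a peak in the main list, -147 bp from its 5′ end, of signal 107 and a thresholded peak in both replicates. Of 9 genes of the TNF and JNK pathway, which can trigger death upstream of the RHG genes, 5 had one, in windows with a median of 11.02 kb; among all genes with windows over 10 and up to 25 kb the share was 35.7%. They were led by puc, a phosphatase that dampens JNK, with 3 summits and a top signal of 140. Traf6 (118, nearest to GIIIspla2), Tak1 (99.1) and egr, the TNF ligand (66.7), followed. The top puc peak lay nearest to the start site of lncRNA:CR44331 and the egr peak to that of snoRNA:Or-CD13. The peaks at Traf6 and egr overlapped a thresholded peak of 1 replicate only.

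Of 17 autophagy genes, 6 had a main-list summit, in windows with a median of 6.26 kb; among all genes with windows over 5 and up to 10 kb the share was 18.9%. The 4 strongest were at Atg5 (signal 356), Atg2 (283), Atg7 (277) and Atg17 (230). All 4 lay nearer to the start site of another gene, namely Dok, CG12093, Sec6 and Xe7. The peak at Atg17 overlapped a thresholded peak of 1 replicate only. Of 8 engulfment genes, with a median window of 6.19 kb in the same class, 3 had one: mbc with 7 summits and a top signal of 212, NimC4, a phagocytic receptor gene, with 83.3 at -210 bp, and crq, a scavenger receptor gene, with 76.4. The top mbc peak overlapped a thresholded peak of both replicates, the NimC4 peak of 1 replicate and the crq peak of neither. None of 7 microRNA genes linked to death had one, in windows with a median of 2.08 kb. Of 11 genes listed as regulators linked to ecdysone and death, 9 had one. The strongest were at Hr4 (9 summits, top signal 400), Eip75B (6, top 252), br (1, 232) and Hr3 (5, top 228). The windows of the 11 had a median of 62.7 kb, far longer than those of the 10 genes. In the class over 25 kb 51.3% of all genes had a summit. The top peaks at Hr4, br and Hr3 lay nearest to the start sites of other genes, namely CR46447, Mur2B and lncRNA:CR46322.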

How the data were processed

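The deposited files were 8 peak lists on dm6: for each replicate, for the pooled analysis and for IDR between the replicates, a long ranked list (the relaxed peaks) and a shorter thresholded one. The deposited signal is the authors' enrichment value per peak, and the deposited −log10 of the global IDR gave the IDR values. The text listings deposited with the lists name control files behind the peaks. The aligner, the caller and the read depth are not given in the sources used here, so no counting error can be given. Most main-list peaks (2110) are 340 bp wide with the summit at the midpoint.

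Summits on the chromosome arms were set against Ensembl release 115 genes with Python 3.11.15, pandas 2.3.3 and numpy 2.4.6. Windows ran from 2 kb upstream of a gene to its end, and flanks to the next gene of any kind. A summit within 500 bp of a start site was classed as promoter. Shared peaks overlapped by at least 1 bp. Window counting was checked with summits planted in 200 genes, and in 200 the count equalled a direct count. Every member and every flank peak of the main list is named, then up to 4 genes of each further list by signal. No test was made, since there is 1 group. The members and lists were chosen with earlier results of these data known. Listed names without a match (Tango7, Vps34, Ced-6, ban) were not used.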

Additional observations from a re-analysis of the deposited data

How the results depend on the processing

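hid and Diap1 were the genes with a window summit in the pooled list, in each replicate's list alone, at IDR limits of 0.001 and 0.05 and among the strongest 50% of main-list peaks. The number of genes ranged from 2 to 2 when a replicate was left out. With no upstream bases the number was 1 (Diap1), since the hid peak lies before the gene. With 5 kb upstream it was 3, adding Debcl. The 6 summits in the 10 windows became 2 at IDR 0.001 and 2 among the strongest 50%, and ranged from 4 to 5 with a replicate left out. For Diap1 the 5 summits became 1 under both of the stricter settings, and 3 without replicate 1 or 4 without replicate 2. The 10 summits of the hid to skl cluster became 6 under both stricter settings and ranged from 7 to 10 with a replicate left out. The flanks held 2 summits under all settings, and ranged from 2 to 2 with a replicate left out. Within 5000 bp of a start site 4 genes had a summit (Debcl, Diap1, Drice and hid) in place of 2, and within 500 bp 2. The share of all genes was not counted for the changed distances, upstream lengths, IDR limits or strongest 50%, so those counts have no background. The Diap1 count at 500 bp rests on the peak of signal 3.82. Of the 8 peaks in windows and flanks, 4 were in both replicates' thresholded lists, also with 50% overlap. Of all main-list peaks, 54.8% were in both by the 1 bp rule. All 8 overlapped peaks in both ranked lists, which is no separate support, since the main list itself came from comparing the replicates. The share of all main-list peaks in both ranked lists was not counted. No paired analysis was possible because all samples belong to 1 group. Read depth is unknown, so a gene without a peak may lie below what these lists could show.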

Other observations

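Genes that act further upstream on growth and death were counted in the same windows. Of 8 such genes, 6 had a main-list summit, in windows with a median of 16.9 kb. Among all genes the share was 15.3%, and 35.7% among those with windows over 10 and up to 25 kb. The strongest were at mei-41 (signal 220), which encodes a DNA damage kinase, lola (143), tefu (128), another DNA damage kinase gene, and yki (116), the Hippo pathway coactivator known to induce Diap1. All 4 peaks were thresholded in both replicates. Those at mei-41, tefu and yki lay nearer to the start sites of TH1, Hsc70-4 and Gpat4.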
